A study of Mus musculus with 16 samples.

Results

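A set of 9 genes of the hepatic stellate cell and its matrix was described in mouse liver RNA-seq: Col1a1, Col1a2, Col3a1, Lrat, Reln, Des, Dcn, Pdgfrb and Timp1. They were taken by name from the 33730 gene rows of the deposited count table, and all 9 passed the filter on low counts, which left 16206 genes for the tests. The study crossed the Nrf2 genotype with CDDO-Me, a synthetic triterpenoid that activates the transcription factor NRF2 (gene Nfe2l2). Liver was taken at partial hepatectomy (day 0) from C57BL/6 mice in 4 groups of 4 animals. The KO CDDO-Me group held Nrf2-null mice given 3 mg/kg of the drug in DMSO by intraperitoneal injection 24 h and again 1 h before surgery, per the treatment protocol, whereas the series' design text puts the resections 24 h after treatment. The KO untreated group held Nrf2-null mice that received nothing. The WT CDDO-Me group held wild-type mice given the drug in the same way, and the WT DMSO group held wild-type mice given the vehicle at 1 µL/g. The null allele, age and sex are not described in the labels used here. Because the KO controls had no vehicle, drug and DMSO cannot be told apart within the KO genotype, and genotype and DMSO cannot be told apart between KO untreated and WT DMSO livers.

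Hepatic stellate cells are the vitamin A storing pericytes of the liver sinusoid. When activated they lose their retinoid droplets, acquire contractile features and become the main source of scar collagen, a change driven in large part by platelet-derived growth factor and transforming growth factor beta. Col1a1 and Col1a2 encode the chains of type I collagen and Col3a1 that of type III collagen. Lrat encodes lecithin retinol acyltransferase, which esterifies retinol for storage, and Reln encodes the secreted glycoprotein reelin. Both were listed here as markers of the quiescent cell, as was Des, which encodes the intermediate filament protein desmin. Des moved with the collagens across the libraries, as described further on. Dcn encodes decorin, a small proteoglycan that binds collagen fibrils and transforming growth factor beta. Pdgfrb encodes a receptor for platelet-derived growth factor, and Timp1 an inhibitor of matrix metalloproteinases.

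Libraries held 12002317 to 99284626 counted reads, WT CDDO-Me replicate 1 being the deepest. Nfe2l2 had 15.7 to 21.0 CPM (read counts scaled to library size with TMM factors) in KO CDDO-Me, 19.9 to 51.7 in KO untreated, 36.6 to 45.5 in WT CDDO-Me and 42.8 to 74.9 in WT DMSO libraries. KO untreated replicate 1 had the 51.7, inside the WT DMSO range, but counts over the whole gene do not check a deletion whose position the labels do not state. Nqo1, an NRF2 target, had 0.434 to 1.98 CPM in the 8 KO libraries and 3.21 to 45.9 CPM in the 8 WT libraries, so on this gene each KO library lay below each WT library. A pair of technical measures divided the libraries. KO untreated replicates 1 and 2 and WT DMSO replicates 1 and 2, called intron-rich here, had 0.673% to 0.967% of reads on genes annotated as sense-intronic or as yet to be experimentally verified, against 0.186% to 0.407% elsewhere. WT CDDO-Me replicates 2 to 4 and WT DMSO replicates 1 to 3 had 0.173% to 0.634% of reads on ribosomal RNA genes, against 0.00108% to 0.0368% elsewhere.

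All 9 are protein-coding genes. In GENCODE M21 (GRCm38), Col1a1 lies on chromosome 11 at 94936224-94953042, Col1a2 on chromosome 6 at 4504814-4541544 and Col3a1 on chromosome 1 at 45311538-45349706, all on the plus strand. Lrat (chromosome 3, 82892579-82903973) and Reln (chromosome 5, 21884454-22344702) lie on the minus strand. Des (chromosome 1, 75360329-75368579), Dcn (chromosome 10, 97479609-97518143) and Timp1 (chromosome X, 20870166-20874735) lie on the plus strand. Timp1 sits inside Syn1, a gene of the opposite strand, and Lrat, Reln and Des overlap antisense genes. The libraries were directional, but the strand setting of the counting is not given in the sources used here, so reads of these overlapping genes may be shared.

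RefSeq promoter windows of 300 bases (250 before the start site and 50 from it onward, GRCm38.p6, gene strand 5′ to 3′) were used for 6 of the 9 genes. Windows of Col1a1, Dcn and Pdgfrb were not searched. The 3 shown belong to members whose levels moved together across the 16 libraries, as described further on. They were searched on both strands for the CCAAT box, for the TATA box as TATAAA, for the antioxidant response element core TGACNNNGC, which NRF2 binds with small MAF proteins, and for the AP-1 element TGANTCA, and capitals mark the matches.
Col1a2 (chr6:4505368-4505667): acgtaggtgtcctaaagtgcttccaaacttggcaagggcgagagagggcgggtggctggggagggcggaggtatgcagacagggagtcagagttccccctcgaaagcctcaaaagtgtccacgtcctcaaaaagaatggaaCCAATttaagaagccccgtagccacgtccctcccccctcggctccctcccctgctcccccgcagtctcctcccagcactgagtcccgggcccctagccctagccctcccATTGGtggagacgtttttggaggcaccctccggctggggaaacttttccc
Col3a1 (chr1:45311288-45311587): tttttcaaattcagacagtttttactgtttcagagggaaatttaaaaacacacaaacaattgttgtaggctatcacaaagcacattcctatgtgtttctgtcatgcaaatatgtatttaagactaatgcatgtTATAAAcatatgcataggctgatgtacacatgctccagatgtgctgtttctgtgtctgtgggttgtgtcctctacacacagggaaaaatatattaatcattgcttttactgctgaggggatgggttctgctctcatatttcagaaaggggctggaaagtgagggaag
Des (chr1:75360042-75360341): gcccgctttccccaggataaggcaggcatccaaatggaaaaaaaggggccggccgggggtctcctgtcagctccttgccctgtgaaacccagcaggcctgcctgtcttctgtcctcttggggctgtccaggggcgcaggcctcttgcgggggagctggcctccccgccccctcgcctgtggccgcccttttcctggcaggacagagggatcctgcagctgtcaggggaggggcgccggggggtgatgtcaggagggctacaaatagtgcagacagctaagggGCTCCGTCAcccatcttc
The Col1a2 window held CCAAT on the gene strand at -109 and on the other strand at 1, counted with the start site as 1. The Col3a1 window held TATAAA at -117, and the Des window held the antioxidant response element core on the other strand at 33. Of 32851 windows of the same length, 37.4% held CCAAT, 13.6% TATAAA, 12.4% TGACNNNGC and 7.81% TGANTCA. These 3 windows thus shared no motif of those searched, and each match is a run of letters rather than a measured binding site. Of the other windows, those of Lrat and Timp1 held CCAAT and that of Reln held none of the 4.

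Levels were compared between genes as FPKM, the authors' values per kilobase of gene length. The length used was 5838 bases for Dcn and 23738 for Reln. In CPM the mean of Reln lay above that of Dcn in each group, so the order given here depends on these lengths. Dcn had the highest mean FPKM of the 9 in every group. It had 13.3 ± 3.38 FPKM in KO CDDO-Me, 15.7 ± 3.55 in KO untreated, 21.4 ± 3.27 in WT CDDO-Me and 13.8 ± 1.68 in WT DMSO livers (mean ± SD, n = 4 each). Col3a1 averaged 4.68 ± 0.926, 13.6 ± 6.79, 7.15 ± 2.06 and 4.64 ± 2.92 FPKM in the groups in that order. It ranked second except in KO CDDO-Me livers, where Reln, at 5.27 ± 1.06 FPKM, stood just above it. Reln had group means of 4.59 to 5.66 FPKM. Des and Timp1 had the lowest means in each group. Col1a1, Lrat, Pdgfrb and Col1a2 filled the middle of the order at group means of 1.67 to 7.28 FPKM.

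**Figure D1:**
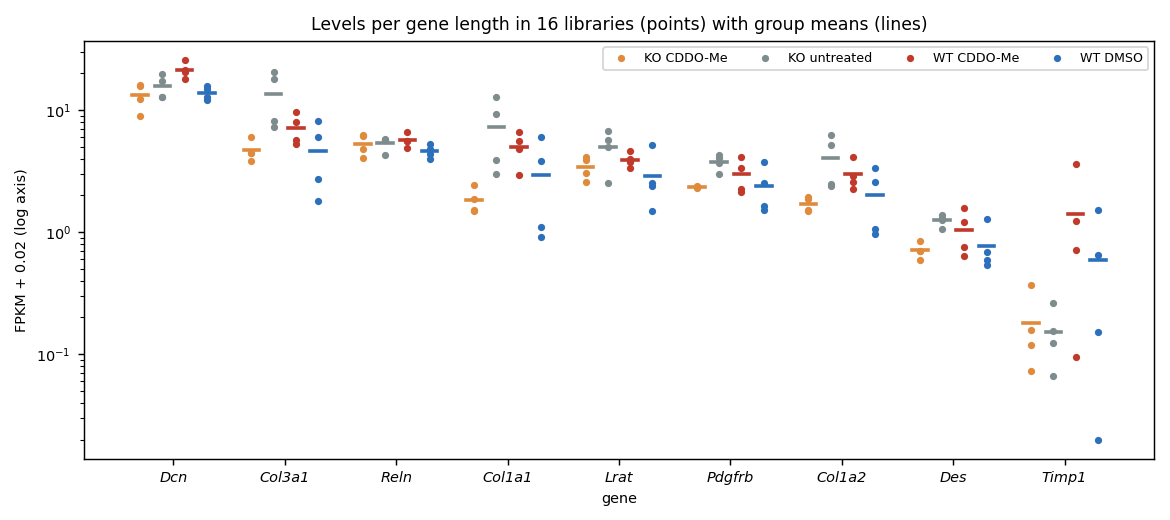
FPKM (log axis, 0.02 added so that a 0 can be drawn) of the 9 genes in the 16 libraries (points), with group means (lines), in the order KO CDDO-Me, KO untreated, WT CDDO-Me and WT DMSO. Dcn lies highest, with group means of 13.3 to 21.4 FPKM, and Timp1 lies below the other genes in the KO groups.

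Apart from Timp1, the fibrillar collagens were the most variable members. Col1a1 had 11.9, 16.1, 10.4 and 9.73 CPM in KO CDDO-Me livers (replicates 1 to 4), 13.9, 20.8, 62.7 and 87.3 in KO untreated livers, 41.2, 32.4, 22.4 and 48.6 in WT CDDO-Me livers and 33.4, 5.97, 6.62 and 31.1 in WT DMSO livers. KO untreated replicates 3 and 4 were the highest of the 16 libraries, WT DMSO replicates 2 and 3 the lowest, and all WT CDDO-Me libraries lay above all KO CDDO-Me libraries. Col1a2 had 18.4, 23.4, 25.5 and 17.9 CPM in KO CDDO-Me, 21.1, 25.0, 65.0 and 79.1 in KO untreated, 48.6, 36.8, 32.9 and 42.6 in WT CDDO-Me and 35.7, 10.8, 13.4 and 39.4 in WT DMSO livers. Its high and low libraries were those of Col1a1. Col3a1 had 37.1, 45.0, 63.4 and 43.1 CPM in KO CDDO-Me, 51.0, 65.3, 182 and 209 in KO untreated, 89.5, 80.9, 60.8 and 74.9 in WT CDDO-Me and 67.6, 21.9, 20.1 and 72.8 in WT DMSO livers. Here too KO untreated replicates 3 and 4 stood above the rest, and the KO CDDO-Me and WT CDDO-Me ranges met at replicate 3 of each group. The spread within the controls was wide: Col1a1 differed 6.29-fold between the highest and lowest KO untreated library and 5.60-fold among WT DMSO libraries, against 1.66-fold among KO CDDO-Me and 2.17-fold among WT CDDO-Me libraries.

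The split of the controls can be set beside the intronic share of reads, whose part in it was not tested. The intron-rich KO untreated replicates 1 and 2 held the low collagen values of their group. Among WT DMSO livers the intron-rich replicate 1 was high and replicate 2 low. In bulk tissue, fewer stellate cells and less RNA per stellate cell cannot be told apart.

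**Figure D2:**
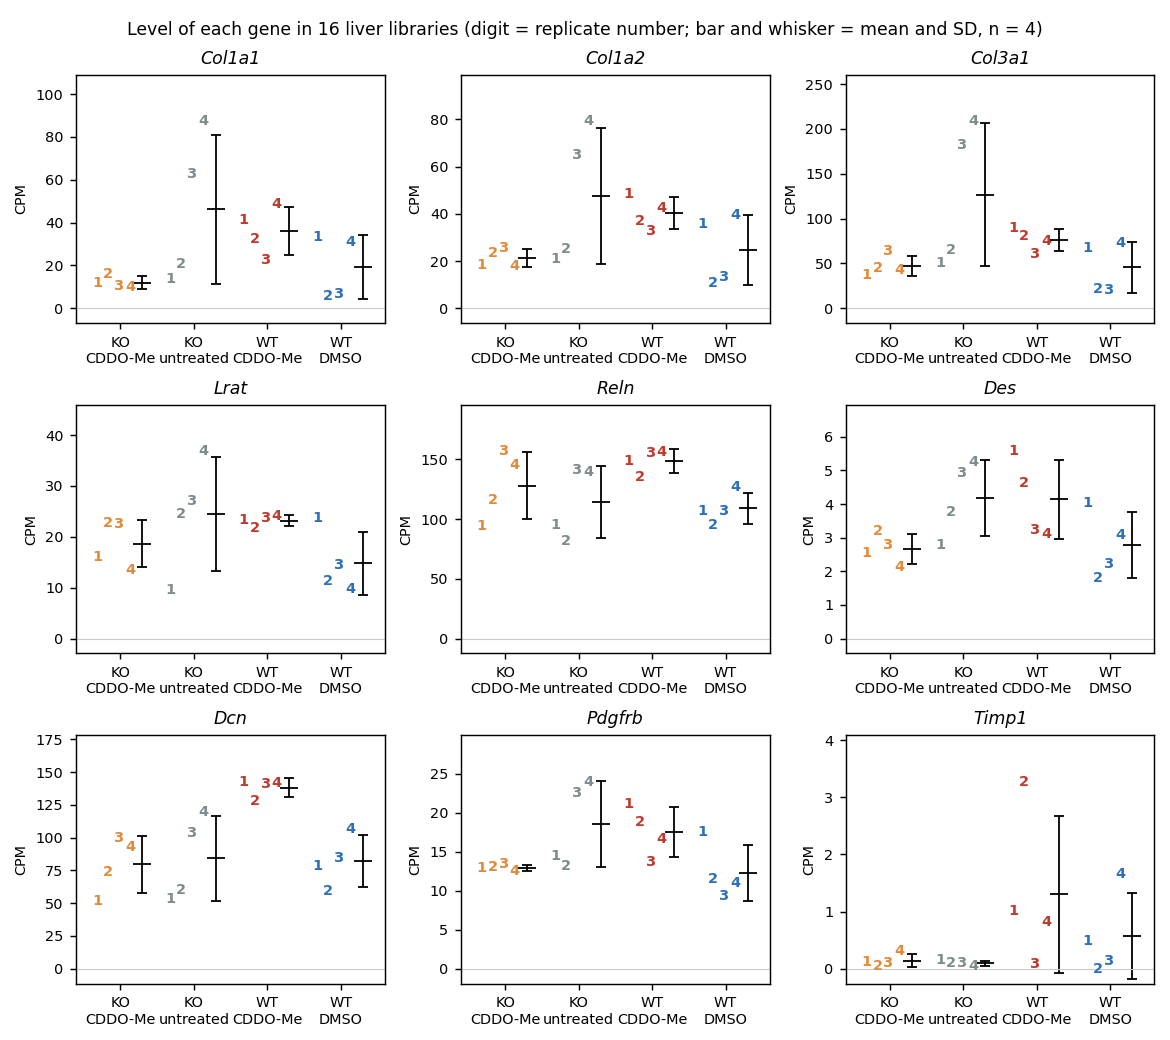
CPM of each gene (linear axes) by group, each digit being the replicate number of 1 library and the bar with whiskers the group mean and SD (n = 4). KO untreated replicates 3 and 4 lie above the other libraries for the 3 collagens, and the 4 WT CDDO-Me libraries lie above all others for Dcn, at 128 to 143 CPM.

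The markers of the quiescent cell varied less. Lrat had 16.03, 22.7, 22.4 and 13.4 CPM in KO CDDO-Me, 9.60, 24.5, 27.0 and 36.8 in KO untreated, 23.4, 21.7, 23.7 and 24.0 in WT CDDO-Me and 23.6, 11.2, 14.5 and 9.78 in WT DMSO livers. Its highest and lowest libraries were both KO untreated, and the WT CDDO-Me libraries were nearly level. Reln had 94.5, 116, 157 and 145 CPM in KO CDDO-Me, 95.0, 81.9, 141 and 139 in KO untreated, 149, 135, 156 and 156 in WT CDDO-Me and 107, 95.3, 107 and 127 in WT DMSO livers. The WT CDDO-Me libraries lay above the WT DMSO libraries for Reln, while both KO groups overlapped both WT groups. Des had 2.55, 3.21, 2.77 and 2.13 CPM in KO CDDO-Me, 2.79, 3.76, 4.91 and 5.24 in KO untreated, 5.56, 4.61, 3.24 and 3.12 in WT CDDO-Me and 4.02, 1.804, 2.21 and 3.08 in WT DMSO livers. For Des every pair of groups overlapped.

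Decorin was highest in the WT CDDO-Me livers, without an edgeR call (adjusted p = 0.207 against WT DMSO and 0.112 against KO CDDO-Me livers). Dcn had 51.7, 73.7, 99.8 and 93.0 CPM in KO CDDO-Me, 53.2, 60.1, 104 and 120 in KO untreated, 143, 128, 141 and 141 in WT CDDO-Me and 78.0, 59.0, 84.3 and 107 in WT DMSO livers. The 4 WT CDDO-Me libraries lay above all 12 others, a pattern whose share over all genes was not counted. The remaining groups overlapped with means of 79.6 to 84.2 CPM. Pdgfrb, the growth factor receptor (GRCm38, chromosome 18, 61045150-61085061, plus strand), had 12.9, 13.0, 13.4 and 12.5 CPM in KO CDDO-Me, 14.4, 13.2, 22.6 and 24.0 in KO untreated, 21.1, 18.8, 13.7 and 16.6 in WT CDDO-Me and 17.5, 11.5, 9.30 and 11.0 in WT DMSO livers. The KO CDDO-Me libraries were level and lay just under the lowest WT CDDO-Me library, and KO untreated replicates 3 and 4 were again the highest.

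Timp1 was close to the limit of detection. It had 3, 1, 3 and 9 reads in KO CDDO-Me, 3, 2, 2 and 1 in KO untreated, 107, 44, 1 and 9 in WT CDDO-Me and 7, 0, 2 and 36 in WT DMSO libraries. These reads came to 0.0479 to 0.309 CPM in KO CDDO-Me, 0.0426 to 0.152 in KO untreated, 0.0790 to 3.27 in WT CDDO-Me and 0 to 1.65 in WT DMSO libraries. The 0 in WT DMSO replicate 2 allows up to 0.208 CPM (3 reads, counting error only), above every KO value except the 0.309 of KO CDDO-Me replicate 4. The KO untreated libraries lay at or under 3 reads, and the log2 fold change of Timp1 between the KO groups (0.62 ± 1.199 SE, edgeR adjusted p = 0.793) rests on 16 reads in KO CDDO-Me and 8 in KO untreated libraries. Levels over 0.5 CPM occurred in 3 WT CDDO-Me libraries and 1 WT DMSO library, and both WT groups spanned more than their means of 1.30 and 0.566 CPM. The other 8 genes had 26 or more reads in every library.

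The order of the groups was alike for the 3 collagens. The group means of Col1a1, Col1a2 and Col3a1 ran from KO untreated (46.2, 47.5 and 127 CPM) to WT CDDO-Me (36.2, 40.2 and 76.5 CPM), with KO CDDO-Me (12.03, 21.3 and 47.2 CPM) and WT DMSO (19.3, 24.8 and 45.6 CPM) below. KO untreated and WT CDDO-Me lay within 1 SD of each other, as did KO CDDO-Me and WT DMSO. The step from WT CDDO-Me to the lower pair exceeded the larger SD of the neighbouring groups, although the ranges overlapped. Lrat, Des and Pdgfrb also had their highest mean in KO untreated livers and the next in WT CDDO-Me livers, within 1 SD. Dcn and Reln had theirs in WT CDDO-Me livers, and for Dcn the gap to the next group exceeded the SD with no overlap. The step of Pdgfrb from WT CDDO-Me to KO CDDO-Me livers did so too. How often all genes have such a gap was not counted.

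In wild-type liver the comparison asks what the drug did over its vehicle. All 9 genes had higher fitted means in WT CDDO-Me than in WT DMSO livers, with a median log2 fold change of 0.70 against -0.02 over all genes tested, and 48.4% of all genes had a positive value. None of the 9 passed the test (edgeR quasi-likelihood, Benjamini-Hochberg adjusted over all genes), where 0.728% of all genes did, and DESeq2 and limma also called 0. Dcn was nearest, at 138 ± 7.10 CPM in WT CDDO-Me and 82.1 ± 19.8 CPM in WT DMSO livers (SD, n = 4), a log2 fold change of 0.75 ± 0.26 (SE, edgeR adjusted p = 0.207). Pdgfrb (0.52 ± 0.22) and Reln (0.45 ± 0.19) also had an unadjusted edgeR p under 0.05, so 3 of 9 did so on the high side, against 6.91% of all genes. Groups did not overlap for Dcn and Reln, against 4.36% of all genes on the high side. Col1a1, Col1a2 and Col3a1 had log2 fold changes of 0.90 ± 0.58, 0.70 ± 0.43 and 0.75 ± 0.45, with overlapping groups. The groups also overlapped for Lrat (0.65 ± 0.33), Des (0.59 ± 0.29) and Timp1 (1.10 ± 0.86, and 0.20 to 2.64 without single libraries). A further fit kept only the ribosomal RNA-rich WT libraries (WT CDDO-Me 2 to 4 and WT DMSO 1 to 3) beside all KO libraries. There the values were 0.89 for Dcn, 0.54 for Reln, 0.36 for Pdgfrb and 0.91 to 1.17 for the collagens, with 0 called. Dcn and Reln were lower without the 4 intron-rich libraries, all of them controls, at 0.50 and 0.32. That fit gave 0.77 for Pdgfrb, 0.92 for Lrat and 0.57 to 0.89 for the collagens. It called 0 of the members and 0.756% of all genes.

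Kupffer cell markers were also higher in WT CDDO-Me livers, and their part in these values was not tested. All 10 had positive fold changes and 4 passed the edgeR test. They summed to 492 to 660 CPM in WT CDDO-Me and 232 to 299 CPM in WT DMSO libraries, and no marker was at 0 in every library of a group. Cd5l, a macrophage-secreted scavenger receptor family protein, rose to 148 ± 34.6 CPM in WT CDDO-Me, against 54.3 ± 5.87 CPM in WT DMSO livers (SD, n = 4, edgeR adjusted p = 0.00454). Marco, a scavenger receptor, rose as well (43.6 ± 15.9 and 11.9 ± 4.45 CPM, adjusted p = 0.0124, and 0.0556 without WT CDDO-Me replicate 2). Adgre1 and Clec4f passed narrowly (edgeR adjusted p = 0.0493 and 0.0492) and missed the threshold whichever WT library was left out. Endothelial markers summed to 532 to 618 CPM in WT CDDO-Me and 360 to 533 CPM in WT DMSO libraries, with 9 of 10 positive, 0 called by edgeR, 5 at an unadjusted p under 0.05 and 1 (Oit3) called by DESeq2.

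In Nrf2-null liver the signs of the collagens turned. KO CDDO-Me against KO untreated livers, a comparison that holds drug and DMSO together, gave 7 of 9 negative fold changes, where 54.4% of all genes had one, with a median of -0.52 against -0.04 over all genes. None of the 9 passed the edgeR test, where 0.13% of all genes did, and 5 had an unadjusted p under 0.05 on the low side, where 9.58% of all genes did. DESeq2 called Col1a1 (adjusted p = 0.0366) with 1.74% of all genes, and limma called 0. Col1a1 averaged 12.03 ± 2.88 CPM in KO CDDO-Me and 46.2 ± 34.9 CPM in KO untreated livers (SD, n = 4), a log2 fold change of -1.94 ± 0.59 (SE, edgeR adjusted p = 0.204). Col3a1 had -1.43 ± 0.46, Col1a2 -1.16 ± 0.43, Des -0.65 ± 0.28 and Pdgfrb -0.52 ± 0.22 (edgeR adjusted p = 0.224 to 0.290). Dcn (-0.08 ± 0.26), Reln (0.16 ± 0.19) and Lrat (-0.39 ± 0.33) had fold changes nearer to 0. The groups overlapped for every member, where 10.5% of all genes did not overlap, and KO untreated replicates 1 and 2 lay near the KO CDDO-Me values. Without the 4 intron-rich libraries, KO untreated replicates 3 and 4 remained as controls, and Col1a1 had a log2 fold change of -2.62 with an edgeR adjusted p of 0.0605.

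Markers of vascular smooth muscle and portal fibroblasts had lower values in the same group. None passed the edgeR test, 2 portal fibroblast markers had an unadjusted p under 0.05, and DESeq2 called 0. Vascular smooth muscle markers summed to 12.001 to 16.1 CPM in KO CDDO-Me and 15.9 to 36.1 CPM in KO untreated libraries, with 3 of 3 tested negative. Portal fibroblast markers summed to 6.40 to 8.46 CPM in KO CDDO-Me and 7.06 to 16.9 CPM in KO untreated libraries, with 6 of 6 tested negative. Mesothelial markers summed to 0.860 to 2.20 CPM in KO CDDO-Me and 0.660 to 3.62 CPM in KO untreated libraries. None of these markers was at 0 in every library of either group, and their part in the collagen values was not tested. Hepatocyte markers summed to 68783 to 92309 CPM in KO CDDO-Me and 47358 to 115744 CPM in KO untreated libraries, with 3 of 6 positive. Endothelial markers summed to 376 to 552 CPM in KO CDDO-Me and 499 to 611 CPM in KO untreated libraries, with 10 of 10 negative, 0 called by edgeR or DESeq2 and 2 at an unadjusted p under 0.05. Kupffer cell markers summed to 393 to 591 CPM in KO CDDO-Me and 274 to 501 CPM in KO untreated libraries, with 9 of 10 positive, 0 called by edgeR or DESeq2 and 3 higher and 1 lower at an unadjusted p under 0.05. The part of these markers was not tested either.

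**Figure D3:**
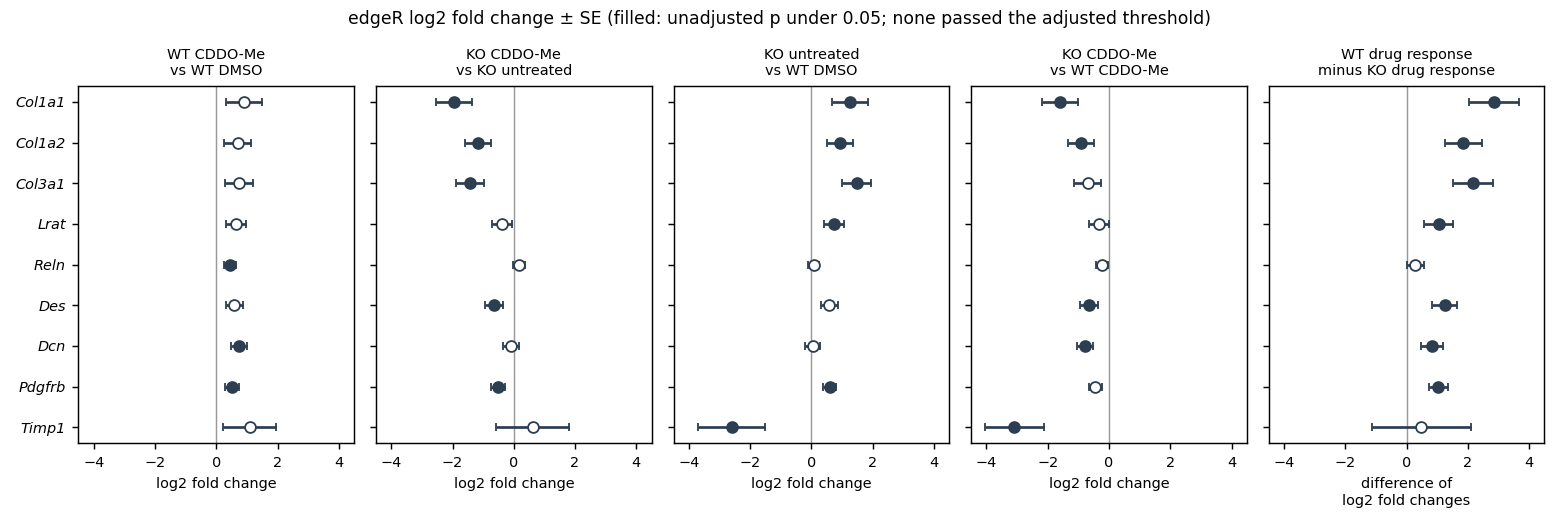
Log2 fold change with its SE from edgeR for each gene in the 4 comparisons, and the difference of the drug responses (WT minus KO) in the last panel. Filled points have an unadjusted p under 0.05 and no point passed the adjusted threshold. The collagens have values of 0.70 to 0.90 for WT CDDO-Me against WT DMSO and of -1.94 to -1.16 for KO CDDO-Me against KO untreated.

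Between the control groups, KO untreated livers had higher collagen means than WT DMSO livers. This comparison, which holds genotype and DMSO together, gave 8 of 9 positive fold changes, where 50.5% of all genes had one, with a median of 0.59 against 0.00 over all genes. None of the 9 passed the edgeR test, where 1.38% of all genes did. An unadjusted p under 0.05 was reached by 5 on the high side, where 6.65% of all genes did so, and by Timp1 on the low side, where 7.46% did. Col3a1 averaged 127 ± 80.1 CPM in KO untreated and 45.6 ± 28.5 CPM in WT DMSO livers (SD, n = 4), a log2 fold change of 1.47 ± 0.46 (SE, edgeR adjusted p = 0.132), and DESeq2 called it alone of the 9 (adjusted p = 0.0397), with 3.49% of all genes, while limma called 0. Col1a1 had 1.26 ± 0.58, Col1a2 0.94 ± 0.43, Lrat 0.73 ± 0.33 and Pdgfrb 0.59 ± 0.22 (edgeR adjusted p = 0.212 to 0.334). Des had 0.59 ± 0.29, and Dcn (0.04 ± 0.26) and Reln (0.07 ± 0.19) lay near 0. Timp1 had -2.60 ± 1.09 on 8 reads in KO untreated and 45 in WT DMSO libraries (edgeR adjusted p = 0.279). That value was -1.07 without WT DMSO replicate 4, which held 36 of the 45 reads, and -0.38 with limma on log2(FPKM + 1). The groups overlapped for every member, where 5.91% of all genes did not overlap. Without the 4 intron-rich libraries, edgeR called Pdgfrb (1.17, adjusted p = 0.0256) and Lrat (1.38, adjusted p = 0.0452) with 2 livers left in each group and 0.525% of all genes called. All KO untreated libraries and only WT DMSO replicate 4 were poor in ribosomal RNA reads, so that measure and the genotype cannot be told apart here either. Without KO untreated replicate 1, Col3a1 had 1.72 (adjusted p = 0.0770) and 0 were called. Vascular smooth muscle markers summed to 15.9 to 36.1 CPM in KO untreated libraries, against 6.49 to 22.4 CPM with WT DMSO, with 3 of 3 tested positive, 0 called by edgeR or DESeq2 and 2 at an unadjusted p under 0.05. Endothelial markers summed to 499 to 611 CPM in KO untreated libraries, against 360 to 533 CPM with WT DMSO, with 9 of 10 positive, 0 called by edgeR or DESeq2 and 3 at an unadjusted p under 0.05. Kupffer cell markers summed to 274 to 501 CPM in KO untreated libraries, against 232 to 299 CPM with WT DMSO, with 10 of 10 positive and 1 called by edgeR, the macrophage receptor gene Adgre1 (1.13 ± 0.19, edgeR adjusted p = 0.00749). Their part in the collagen values was not tested.

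Among the treated livers, fitted means of KO CDDO-Me lay below those of WT CDDO-Me for all 9 genes, where 51.3% of all genes had a negative value, with a median log2 fold change of -0.70 against -0.01 over all genes. None of the 9 passed the edgeR test, where 3.3% of all genes did. Of the 9, 5 had an unadjusted p under 0.05 on the low side, where 9.16% of all genes did, DESeq2 called Timp1 (adjusted p = 0.0308) with 5.8% of all genes, and limma called Dcn (0.0432 and 0.0430 with 1 and 0.1 added to the FPKM) with 5.92% and 5.99% of all genes. Dcn averaged 79.6 ± 21.6 CPM in KO CDDO-Me and 138 ± 7.10 CPM in WT CDDO-Me livers (SD, n = 4), a log2 fold change of -0.80 ± 0.26 (SE, edgeR adjusted p = 0.112). Timp1 had -3.09 ± 0.96 (edgeR adjusted p = 0.0970), which rests on 16 reads in KO CDDO-Me and 161 in WT CDDO-Me libraries, and edgeR called it without WT DMSO replicate 4 (adjusted p = 0.0424, with 5.03% of all genes called). Its value was -3.77 to -2.17 without single libraries and -3.14 to -0.84 over the other alternatives. Col1a1 averaged 12.03 ± 2.88 CPM in KO CDDO-Me and 36.2 ± 11.3 CPM in WT CDDO-Me livers, a log2 fold change of -1.59 ± 0.58 (SE, edgeR adjusted p = 0.162). Des (-0.65 ± 0.28), Col1a2 (-0.92 ± 0.43), Col3a1 (-0.70 ± 0.45), Pdgfrb (-0.44 ± 0.22), Lrat (-0.31 ± 0.33) and Reln (-0.22 ± 0.19) did not pass either (edgeR adjusted p = 0.243 to 0.706). Groups were apart for Col1a1, Col1a2, Dcn and Pdgfrb, 4 of 9 on the low side against 9.82% of all genes. Fitted on these 8 libraries alone, without the controls, edgeR called Col1a1 (adjusted p = 0.00183), Col1a2 (0.00390), Dcn (0.0169) and Col3a1 (0.0236), 4 of the 9, where that fit called 13.5% of all genes. All KO CDDO-Me libraries and only 1 WT CDDO-Me library were poor in ribosomal RNA reads, so that measure and the genotype cannot be told apart here. Endothelial markers summed to 376 to 552 CPM in KO CDDO-Me and 532 to 618 CPM in WT CDDO-Me libraries, with 10 of 10 negative and 1 called by edgeR, and Kupffer cell markers to 393 to 591 and 492 to 660 CPM, with 6 of 10 negative and 1 called by edgeR (Marco, -1.86 ± 0.33, edgeR adjusted p = 0.004). The part of these markers in the members' values was not tested.

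The difference between the drug responses, coded as WT minus KO, was above 0 for all 9 genes, where 51% of all genes had a positive value, with a median of 1.05 against 0.01 over all genes. None passed the edgeR test, where 0.13% of all genes did, and 7 had an unadjusted p under 0.05 on the high side, against 4.96% of all genes. Col1a1 had a response of -1.94 in KO livers and of 0.90 in WT livers, a difference of 2.85 ± 0.82 (SE, edgeR adjusted p = 0.250), and DESeq2 called it alone of the 9 (adjusted p = 0.0359), with 1.07% of all genes, while limma called 0. The differences were 2.17 ± 0.64 for Col3a1, 1.85 ± 0.60 for Col1a2, 1.24 ± 0.40 for Des, 1.03 ± 0.31 for Pdgfrb, 1.05 ± 0.46 for Lrat, 0.83 ± 0.37 for Dcn, 0.48 ± 1.61 for Timp1 and 0.29 ± 0.27 for Reln. The only gene of the lists that edgeR called here was Marco (2.86 ± 0.47, edgeR adjusted p = 0.0155). DESeq2 called Marco, Postn, Hspg2, Serpinh1, Fstl1, Sparc, Oit3 and Stab1 on the high side and Tat on the low side, and limma called Marco and Sparc. Without the 4 intron-rich libraries, edgeR called Col1a1 (3.52, adjusted p = 0.0474), Lrat (1.67, 0.0474) and Pdgfrb (1.59, 0.0128), with 0.409% of all genes called. The vehicle enters the KO response and cancels in the WT response, so this value is not a test of genotype alone.

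In the wider matrix and stellate cell lists, several of which hold members, the medians mostly lay on the same side of 0 as those of the members. Few genes were called. The comparisons share groups, so their values are not independent. Of 19 basement membrane and network collagens and laminins, 16 had positive fold changes in WT CDDO-Me against WT DMSO livers (median 0.50), 18 negative ones in KO CDDO-Me against KO untreated livers (median -0.61), 16 positive ones in KO untreated against WT DMSO livers (median 0.54) and 17 negative ones in KO CDDO-Me against WT CDDO-Me livers (median -0.54). EdgeR called 0 of them in any of the 4, and unadjusted p-values under 0.05 in those directions were reached by 7, 11, 11 and 7. DESeq2 called 1 (Col6a2, in KO livers) and limma 1 (Col4a5, in the controls, with 1 added to the FPKM). Of 14 activated and contractile genes tested, the members Col1a1, Col3a1 and Timp1 among them, 12 were positive, 13 negative, 11 positive and 13 negative in the comparisons in that order. EdgeR called 0 and DESeq2 0, 1, 3 and 1 of this list, namely Col1a1, then Col3a1, Myl9 and Postn, then Timp1. In those directions 2, 6, 7 and 5 had an unadjusted p under 0.05, and 1 more did on the low side in the controls. The 9 fibrillar collagens tested, which include 3 members, had medians of 0.37, -0.99, 0.82 and -0.42, with 0 called by edgeR. Unadjusted p-values under 0.05 were reached by 3 (lower), 5 (lower), 5 (higher) and 2 (lower) of them, and DESeq2 called 0, 1, 2 and 0. Periostin (Postn), a matrix protein of activated fibroblasts, had the lowest p of the contractile list in the controls, at 12.1 ± 6.14 CPM in KO untreated and 5.84 ± 0.969 CPM in WT DMSO livers (SD, n = 4, edgeR adjusted p = 0.0716, called by DESeq2 and limma). Elastin (Eln) averaged 1.70 ± 0.540 CPM in KO CDDO-Me and 6.98 ± 2.62 CPM in KO untreated livers, ranges that did not overlap (edgeR adjusted p = 0.09996, called by DESeq2).

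The 15 markers of the quiescent cell, Lrat, Reln and Des among them, had medians of 0.56 in WT CDDO-Me against WT DMSO livers and -0.15 in KO CDDO-Me against KO untreated livers. Between genotypes their medians were 0.23 for the control livers and -0.47 for the treated ones. The lowest p of the list belonged to Vipr1 (0.56 ± 0.18) in the WT drug comparison, to Des (-0.65 ± 0.28) in the KO drug comparison and to Ecm1 (-1.35 ± 0.23) between the treated groups. Of these 3 genes only Ecm1 passed the edgeR test in the comparison named. Among genes with the lowest p of their lists but no edgeR call, Col5a1, a regulator of fibril assembly, had -0.94 ± 0.27 in the KO drug comparison and 0.93 ± 0.27 between the controls. Lamc1, a laminin chain, had 0.59 ± 0.18 in the WT drug comparison and -0.54 ± 0.18 between the treated groups. Itga8, the integrin alpha 8 gene, had -0.75 ± 0.26 in the KO drug comparison and 0.90 ± 0.26 between the controls (edgeR adjusted p of these 3 genes 0.103 to 0.235). Between the controls DESeq2 called Col5a1 and Itga8, and limma called Itga8.

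Sparc, a collagen-binding matricellular protein, was called in the controls, among 20 proteoglycans and glycoproteins tested. It rose to 38.7, 52.9, 86.7 and 129 CPM in KO untreated livers, against 37.2, 26.8, 28.3 and 36.5 CPM in WT DMSO livers (log2 fold change 1.26 ± 0.27 SE, edgeR adjusted p = 0.0307). All KO untreated values lay above all WT DMSO values, and the call was lost without WT DMSO replicate 2 or 3 or KO untreated replicate 3 or 4. Its order of libraries in KO untreated livers was that of the collagens, but not of matrix genes alone. Summed hepatocyte markers had that order too (47358, 54769, 83564 and 115744 CPM), as did Kupffer cell, portal fibroblast and mesothelial markers. Summed endothelial, cholangiocyte and vascular smooth muscle markers did not.

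Among the treated livers, the listed genes that edgeR called lay lower in the KO group, apart from the hepatocyte gene Tat (1.201 on the log2 scale, edgeR adjusted p = 0.0043). Ecm1, a matrix glycoprotein gene of the quiescent cell list, had 31.4, 39.8, 36.6 and 40.2 CPM in KO CDDO-Me livers. It had 101, 83.3, 74.3 and 118 CPM in WT CDDO-Me livers (log2 fold change -1.35 ± 0.23 SE, edgeR adjusted p = 0.00322). In bulk tissue the cells that made this RNA cannot be told. The groups were far apart, and the call held whichever library was left out. Serpinh1, the collagen chaperone HSP47, fell to 10.8 ± 0.844 CPM, against 22.5 ± 4.58 CPM in WT CDDO-Me livers (SD, n = 4, edgeR adjusted p = 0.0467), a call lost in 12 of 16 fits without 1 library and kept without WT DMSO replicate 2 or 4 or KO untreated replicate 1 or 4. Of 6 genes for platelet-derived growth factors and their receptors, Pdgfc, a ligand, fell to 5.17 ± 0.718 CPM, against 9.80 ± 1.12 CPM in WT CDDO-Me livers (adjusted p = 0.00897). It stayed called whichever library was left out. Pdgfra, the alpha receptor, fell to 7.94 ± 1.04 CPM, against 15.2 ± 3.93 CPM (adjusted p = 0.0402), and lost the call in 8 of 16 such fits (WT CDDO-Me 1, 2 or 4, KO untreated 3 and each KO CDDO-Me library). Endothelial Stab1 fell to 94.2 ± 10.7 CPM, against 137 ± 10.3 CPM (adjusted p = 0.0473), and lost the call in 12 of 16.

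Retinoid storage and turnover, the pathway of Lrat, gave no common direction. Of 11 genes tested, 7 had positive values in KO CDDO-Me against WT CDDO-Me livers, with a median of 0.19. Both genes that edgeR called fell and are also expressed by hepatocytes, while DESeq2 called 4 (1 higher, 3 lower) and limma 3 (all lower). Aldh1a1, a retinaldehyde dehydrogenase, had 453 ± 228 CPM in KO CDDO-Me and 1528 ± 378 CPM in WT CDDO-Me livers (SD, n = 4, edgeR adjusted p = 0.0111), and Ces1d, a carboxylesterase, 163 ± 122 and 724 ± 24.5 CPM (adjusted p = 0.0166). Either call was lost without KO CDDO-Me replicate 2 (adjusted p = 0.0502 and 0.0575). Mmp12, a macrophage elastase, was among 17 proteases and inhibitors tested, the list of Timp1. It fell to 0.0479 to 0.241 CPM in KO CDDO-Me, against 0.316 to 3.13 CPM in WT CDDO-Me livers (edgeR adjusted p = 0.0213). The call was lost without WT CDDO-Me replicate 2 or KO CDDO-Me replicate 1, 2 or 3. In KO CDDO-Me libraries 3 reads came to 0.0956 to 0.144 CPM. Serpine2, a protease inhibitor, fell to 1.22 ± 0.469 CPM in KO untreated, against 4.71 ± 2.42 CPM in WT DMSO livers (adjusted p = 0.0385), and lost the call in 8 of 16 fits without 1 library. The neutrophil collagenase gene Mmp8 was also called there (edgeR adjusted p = 0.0353), a call lost in 7 of 14 such fits and 4 of 9 other alternatives. It had 0 to 0.0426 CPM in the KO untreated group, against 0.0694 to 3.31 CPM with WT DMSO. In these libraries 3 reads came to 0.128 to 0.208 CPM, above every KO untreated value and the lowest WT DMSO value. EdgeR called 0 of 20 TGF-beta genes, 0 of 14 matrix receptors and 0 of 2 in the reelin list (Reln and its receptor gene Vldlr) in all 5 comparisons. Unadjusted p-values under 0.05 numbered 3 to 6 a comparison for TGF-beta genes, 1 to 4 for matrix receptors and 0 to 1 in the reelin list, and DESeq2 called 0 to 5, 0 to 1 and 0. The 5 were TGF-beta genes in KO CDDO-Me against WT CDDO-Me livers, and among them the co-receptor gene Tgfbr3 averaged 17.5 ± 2.75 CPM in KO CDDO-Me and 27.4 ± 3.76 CPM in WT CDDO-Me livers (SD, n = 4, edgeR adjusted p = 0.0575).

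**Figure D4:**
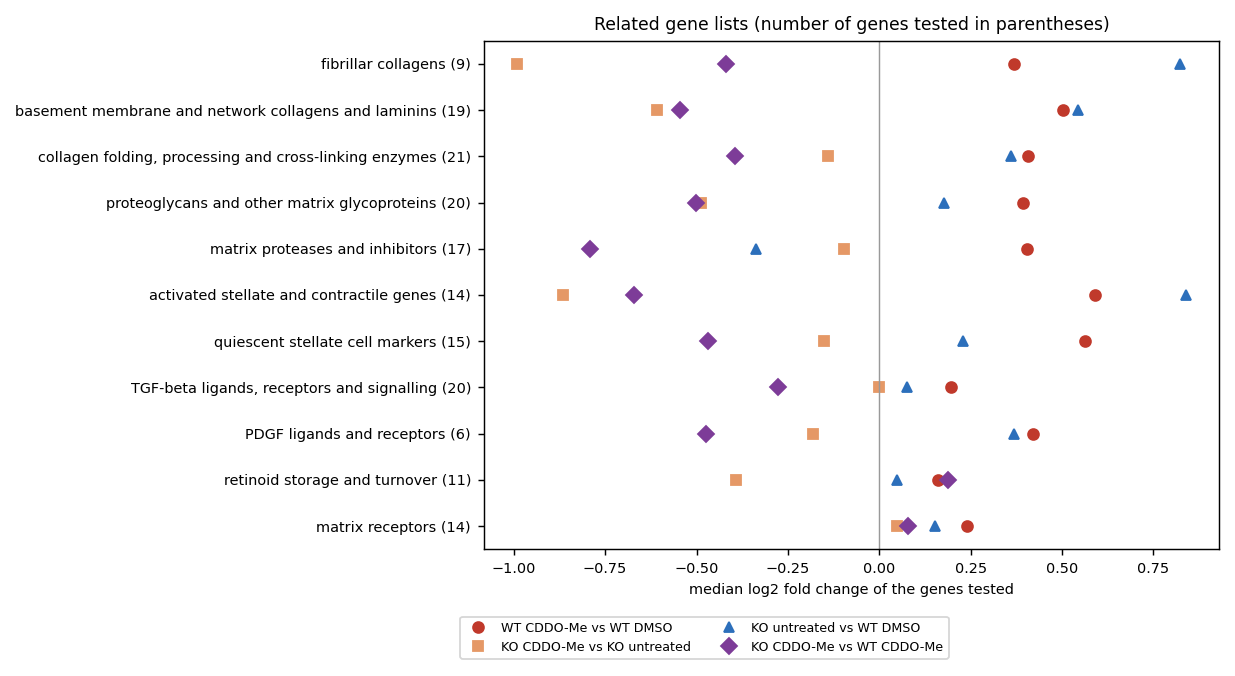
Median log2 fold change of the genes tested in each related list (number tested in parentheses, lists may share genes) for the 4 comparisons. The basement membrane list has medians of 0.50, -0.61, 0.54 and -0.54, while the matrix receptor medians stay between 0.05 and 0.24.

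Across the 16 libraries the members fell into sets that were recognised after the correlations were seen. Among Col1a1, Col1a2, Col3a1, Des and Pdgfrb, the 10 pairwise Pearson correlations of log2 CPM were 0.839 to 0.973 and the Spearman values 0.788 to 0.971 (16 libraries, permutation p adjusted over 36 pairs 9e-05 to 0.000262 for Pearson and 9e-05 to 0.00154 for Spearman, 9e-05 being the smallest that 100000 permutations can give here). The correlations were 0.742 to 0.979 on deviations from the group means, 0.857 to 0.987 in the 6 ribosomal RNA-rich libraries, 0.803 to 0.970 in the other 10 and 0.759 to 0.959 without the 2 libraries farthest from the median. Thus these 5 genes moved together also with the group means removed, pooled over the 4 groups. Single groups were not correlated on their own. In KO CDDO-Me livers Col1a1 was highest in replicate 2 (16.1 CPM) and Col3a1 in replicate 3 (63.4 CPM). Dcn and Reln formed another pair (Pearson 0.899, Spearman 0.821, adjusted permutation p = 0.000135 and 0.000864), with 0.940 on deviations from the group means. Lrat correlated at 0.648 to 0.718 with the set of 5, and Timp1 at -0.09 to 0.50 with the other 8 genes. The promoters printed earlier, of Col1a2, Col3a1 and Des, belong to the set of 5.

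**Figure D5:**
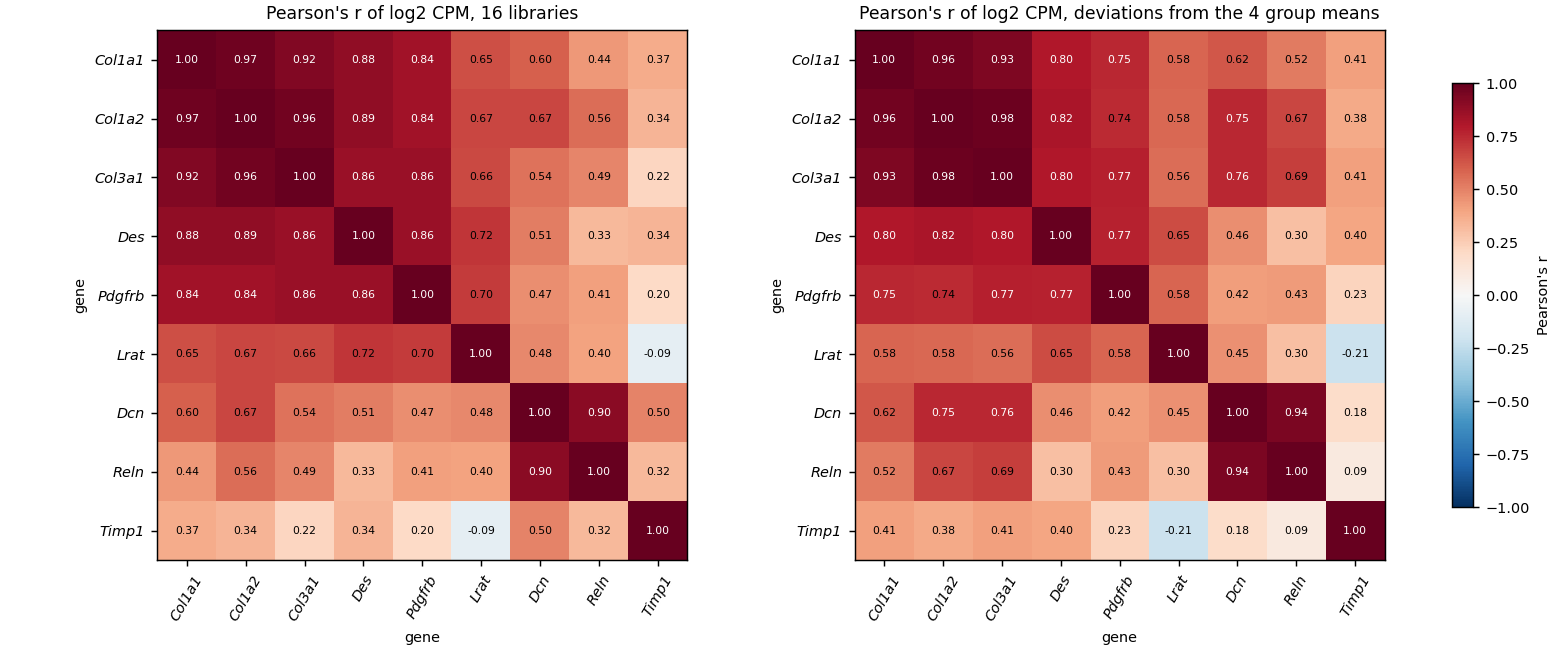
Pearson correlation of log2 CPM between the 9 genes over 16 libraries (left) and after removing the 4 group means (right), on a scale of -1 to 1. The block of collagens, Des and Pdgfrb stays between 0.74 and 0.98 on the right, and Dcn with Reln reads 0.94.

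The ratio of the type I collagen chains was compared within each library. Its size depends on the gene lengths used, 6563 bases for Col1a1 and 12426 for Col1a2. In CPM the mean of Col1a1 lay below that of Col1a2 in each group. Col1a1 over Col1a2 in FPKM was 1.08 ± 0.239 in KO CDDO-Me, 1.68 ± 0.359 in KO untreated, 1.68 ± 0.362 in WT CDDO-Me and 1.31 ± 0.391 in WT DMSO livers (mean ± SD, n = 4). Col3a1 over Col1a2 was 2.80 ± 0.352, 3.31 ± 0.195, 2.42 ± 0.246 and 2.30 ± 0.284 in the same order. The second ratio lay higher in all KO untreated than in all WT DMSO libraries. With 12 tests of 3 such ratios (two-sided exact permutation, smallest possible p = 0.0286), the adjusted p-values ran from 0.137 to 0.543, so none passed.

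Of 13511 genes with a mean log2 CPM of at least 0, members being left out of the ranking, the 3 most like each member over the 16 libraries, by Pearson's r, included several other matrix genes. Adamts2, which removes the amino-terminal propeptide of fibrillar procollagens, was the non-member nearest to Col1a1 (0.969) and Col1a2 (0.961). Matn2 (0.938) and Col16a1 (0.933) followed for Col1a1, and Loxl2 (0.943) and Col6a1 (0.939) for Col1a2. For Col3a1 the collagen cross-linking enzyme gene Loxl2 (0.946), Col6a1 (0.945) and Fstl1 (0.936) were the nearest non-members. Des had Unc5b (0.871), Loxl2 (0.859) and Col16a1 (0.858), and Pdgfrb had the minor fibrillar collagen Col5a1 (0.900), fibrillin 1 gene Fbn1 (0.878) and Sparc (0.873). All members of the set of 5 thus had a collagen gene among their nearest 3 non-members. The other members did not: Lrat had Art4 (0.886), Chst14 (0.875) and Slc25a4 (0.841), Reln had Dctn2 (0.899), Tgfbi (0.881) and Tubb5 (0.876), and Dcn had C1qtnf1 (0.931), Ntn1 (0.921) and Tuba1b (0.919). Timp1 had Nrp2 (0.804) and Gata6 (0.787) among its nearest 3. For 5 members another member lay nearer than any of these: Col1a1 and Col1a2 were each other's nearest gene (0.973), and Col1a2 was nearest to Col3a1 (0.963) and Des (0.889) and Dcn to Reln (0.8995, against 0.8988 for Dctn2).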

How the data were processed

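Liver RNA depleted of ribosomal RNA (1 µg) was sequenced as paired reads of 150 bases on 3 lanes, per the labels' protocols. The deposited whole-number counts per gene were made by the authors, and the submitters' processing notes name HTSeq 0.6.1p1, TopHat2 2.1.0, DESeq2, cutadapt 1.2.1 and CASAVA 1.8.2 without their roles. The authors' deposited FPKM values equal these counts divided by gene length and library total (largest relative deviation 8.7e-07). GENCODE M21 matched 33629 gene IDs and left 101 unmatched.

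The main test was edgeR 4.0.16 (glmQLFTest, TMM, filterByExpr) in R 4.3.3 on the counts of all 16 libraries, with 12 residual degrees of freedom and a Benjamini-Hochberg adjusted p under 0.05 over 16206 genes. CPM are counts over TMM-scaled totals. Log2 CPM used a prior count of 2. DESeq2 1.42.0, limma 3.58.1 on log2(FPKM + 1) and log2(FPKM + 0.1), other scalings and filters, left-out libraries, an intronic-share covariate and a replicate block were alternatives. The scripts were tested on simulated data. Counts of any pair of libraries in a group differed beyond sampling noise (chi-square at least 15.1 times its degrees of freedom).

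The members and lists were chosen with earlier results of these data known. The rule named all 9 members, every called gene of a list (up to 4 per list and comparison), the gene of lowest p where none was called, and the 3 genes most like each member. Of the uncalled list genes only some are printed. A few genes that the rule names are not reported here. The main test did not pair libraries by number, and the replicate block was an alternative only. Deviations from the group means of same-numbered KO untreated and WT DMSO libraries correlated at 0.371 to 0.483. Differently numbered pairs reached 0.663, 4 of 8 libraries correlated best with their own number, and the labels give these libraries different running numbers.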

Additional observations from a re-analysis of the deposited data

Results flagged for a closer look

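Of 36 groups of 4 values (9 genes in 4 groups), 1 held a library apart from the rest, where chance alone gives about 1 in 20. Dcn had 127.55 CPM in WT CDDO-Me replicate 2, below the 141 to 143 CPM of the other 3 libraries. The gap was 0.896 of the group's range, above Dixon's critical value for 4 values. The value still lay above every Dcn value of the other groups.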

How the results depend on the processing

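The collagens had a wide spread within both control groups, and Timp1 rested on few reads. Of 1197 values of the members under the alternatives, 1158 kept their direction and side of the threshold, 22 newly passed it and 17 turned round.

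EdgeR called 0 members in every comparison. DESeq2 called 1 in each comparison except WT CDDO-Me vs WT DMSO. Without the 4 intron-rich libraries the calls were 2 in KO untreated vs WT DMSO (0.525% of all genes), 2 between the treated groups (9.04%) and 3 in the difference of responses (0.409%). Between the treated groups they were 1 with limma on either FPKM scale (5.92% and 5.99% of all genes), 4 with only the groups compared (13.5%), 3 with the intronic covariate (13.4%) and 0 to 1 without single libraries (1 without WT DMSO replicate 4). The replicate block called 1 there (Dcn, adjusted p = 0.0213), although the numbers did not pair those libraries (r = -0.17 to 0.23, best with its own number in 5 of 8), and it changed no other call of a member. WT CDDO-Me vs WT DMSO stayed at 0 in all alternatives. The cause was not tested.

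The 17 values that turned round lay near 0 or came from Timp1. For Reln in KO CDDO-Me vs KO untreated they were -0.0251 and -0.0309 with limma on the FPKM + 1 and FPKM + 0.1 scales, -0.11 without the intron-rich libraries and -0.00493 with the intronic covariate. For Dcn in KO untreated vs WT DMSO they were -0.00613 with the replicate block and -0.017 with the covariate. For Timp1 in the difference of responses it was -0.69 without the intron-rich libraries. Leaving out single libraries gave Dcn -0.25 to 0.14 in KO CDDO-Me vs KO untreated (positive without KO untreated 3 or 4 or KO CDDO-Me 1) and -0.18 to 0.20 in KO untreated vs WT DMSO (negative without KO untreated 3 or 4 or WT DMSO 2). It gave Reln -0.049 to 0.20 in KO untreated vs WT DMSO (negative without KO untreated 3 or 4). It gave Timp1 -0.066 to 0.89 in KO CDDO-Me vs KO untreated (negative without KO CDDO-Me 4) and -0.43 to 2.01 in the difference of responses (negative without WT CDDO-Me 2).

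FPKM scaling with limma moved the median of all genes to between -0.22 and 0.17, against -0.04 to 0.01 with TMM. Over the alternatives, all genes called ranged from 54 to 450 (main 118) in WT CDDO-Me vs WT DMSO, 4 to 292 (21) in KO CDDO-Me vs KO untreated, 20 to 824 (223) in KO untreated vs WT DMSO, 265 to 2168 (534) between the treated groups and 18 to 201 (21) for the difference of responses.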
